A study of Papio hamadryas with 4 samples.

Results

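Serpins are a family of proteins that share one fold, and most of them act as suicide inhibitors of serine proteases: the protease cuts an exposed loop of the serpin and is trapped in a covalent complex. Some members have lost that activity and work as hormone carriers, chaperones or signalling proteins. In kidney, serpins are made by tubule cells, vascular cells and fibroblasts, and several also reach the tubule by filtration of plasma proteins made in liver. The 7 genes described here are SERPINA3, SERPINA1, SERPINA5, SERPINE2, SERPING1, SERPINF1 and SERPINH1. They were selected on earlier results of these same arrays, in which SERPINA3 differed between the diets, so their diet ratios are a description and carry no test. The members are the probes whose annotated gene symbol is one of the 7. That gave 10 probes for 7 of the 18774 genes with a probe of a single symbol, and 7 of the 31 serpin genes on the array.

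RNA from kidney biopsies taken from baboons (Papio hamadryas) was hybridised to Illumina bead arrays with probes designed on human genes. The groups are animals of the normal SLC phenotype (NSLC) on high sodium, NSLC on low sodium, the high SLC phenotype (HSLC) on high sodium, and HSLC on low sodium. Each diet lasted 6 weeks, SLC is not spelled out in the labels, and the sources used here give neither ages, nor the number of animals behind an array, nor the order of the diets. Each group has 1 array, so no ratio within a phenotype or a diet has a replicate check or an error. Diet was measured once in each phenotype, and both ratios are given side by side. A fit of diet with phenotype as a block was not run, since the genes were chosen on the diet contrast. Ratios are log2 differences between 2 arrays after background correction and quantile normalization, with a size rule of 2-fold that is not a test. A probe was called detected on an array when its deposited intensity was above that array's median. The medians were 79.5 in NSLC on high sodium, 77.7 in NSLC on low sodium, 68.2 in HSLC on high sodium and 72.1 in HSLC on low sodium. In bulk tissue, fewer cells of a type and less RNA per cell cannot be told apart.

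One array stood apart. The 8 skeletal muscle markers summed to an intensity of 783 in NSLC on high sodium, 1286 in NSLC on low sodium, 652 in HSLC on high sodium and 13703 in HSLC on low sodium. HSLC diet ratios of the members are therefore also given against the NSLC low sodium array. That array was not free of muscle signal either. All 8 markers were above the array median on both low sodium arrays, against 5 in NSLC and 4 in HSLC on high sodium. TNNC2 read 307 in NSLC on low sodium and 86.4 in NSLC on high sodium, a log2 ratio of -2.11. The part of muscle signal in the serpin ratios was not tested. All 5 kidney tubule identity genes on the array (SLC12A1, SLC12A3, AQP2, LRP2 and SLC34A1) were detected in all 4 samples. The 4 podocyte genes measured were near the array medians apart from WT1, which stood between 161 and 168.

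The inhibitors of the acute phase come first. SERPINA3, also called alpha-1-antichymotrypsin, is a secreted inhibitor of the neutrophil protease cathepsin G and of mast cell chymase. Its probe read 1600 in NSLC on high sodium and 119 in NSLC on low sodium. In HSLC it read 958 on high sodium and 160 on low sodium. Both high sodium samples were far above both low sodium samples. The share of all genes that separate the diets this way was not counted. On high sodium the probe stood at 20.1 times the array median in NSLC and 14.0 times in HSLC, and on low sodium, closer to background, at 1.53 times in NSLC and 2.21 times in HSLC.

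Within each array, SERPINA3 stood at the 97.7th percentile of all probes in NSLC on high sodium and at the 79.1st percentile in NSLC on low sodium. In HSLC it stood at the 97.0th percentile on high sodium and at the 85.6th percentile on low sodium. These positions do not depend on how the arrays were scaled to each other. The log2 ratio of high over low sodium was 3.44 in NSLC and 2.51 in HSLC, which placed SERPINA3 first among 12191 genes in NSLC and at rank 5 among 12481 in HSLC. Against the low sodium array of the other phenotype the ratios were 2.90 for the NSLC high sodium sample and 3.05 for the HSLC high sodium sample.

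SERPINA3 was the only one of the 7 serpins at 2-fold or more on high sodium, in NSLC and in HSLC alike. Over all genes, 0.509% were 2-fold or more higher in NSLC and 0.529% in HSLC. Since that contrast was used to choose the genes, nothing is read from the count. The size of the SERPINA3 ratio depended on the value table and the offset. Over 7 ways of scaling and background correction it ran from 3.12 to 3.89 in NSLC and from 2.47 to 2.78 in HSLC, and in each it held the same percentile among genes, 99.99 in NSLC and 99.96 in HSLC.

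**Figure D1:**
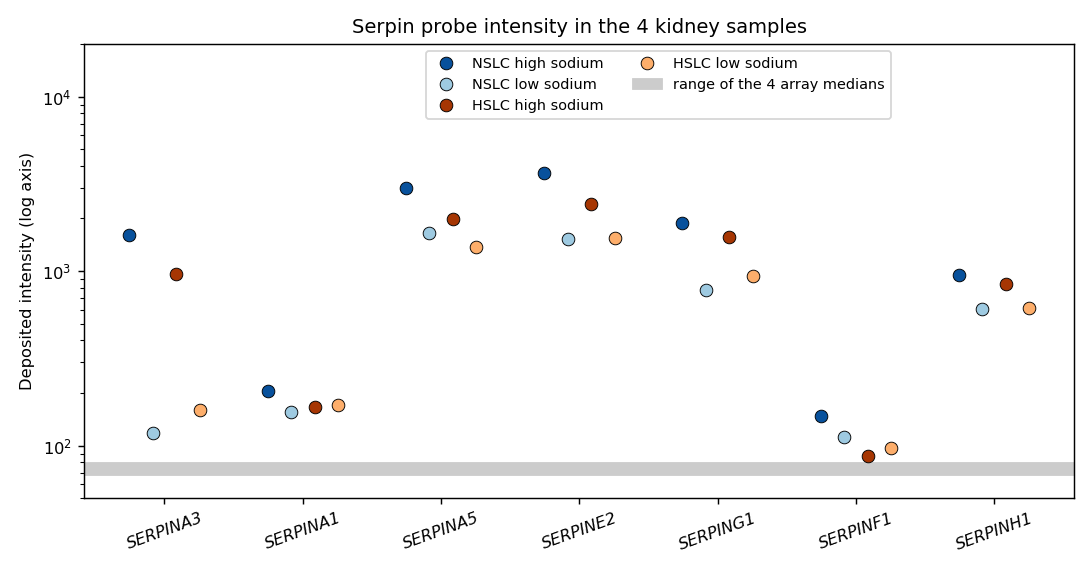
Deposited intensity (log axis) of the leading probe of each of the 7 serpins in the 4 kidney samples, 1 array per point; the grey band is the range of the 4 array medians. SERPINA3 reads 1600 and 958 in the high sodium samples of NSLC and HSLC, against 119 and 160 in the low sodium samples, while SERPINA1 reads between 157 and 205 and SERPINF1 between 87.4 and 147 in the 4 samples.

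SERPINA1, alpha-1-antitrypsin, is the main plasma inhibitor of neutrophil elastase and, like SERPINA3, an acute phase protein of the liver. Its brightest probe, ILMN_1745961, read 205 in NSLC on high sodium and 157 in NSLC on low sodium. In HSLC it read 167 on high sodium and 170 on low sodium. The 4 readings lay within a narrow band and the diets overlapped. The log2 ratio was 0.16 in NSLC and -0.05 in HSLC, where its sign turned with scaling (-0.06 to 0.02). A pair of further probes stayed near the array medians, between 71.4 and 90.6, with ratios from -0.19 to 0.07. SERPINA1 thus did not share the pattern of SERPINA3, and the root mean square difference between their centred log2 profiles was 1.47.

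SERPINA5, the protein C inhibitor, acts on activated protein C, thrombin, urokinase and tissue kallikrein, and is made by kidney tubule cells in humans. It read 2991 in NSLC on high sodium and 1651 in NSLC on low sodium. In HSLC it read 1998 on high sodium and 1373 on low sodium. Each high sodium reading was above both low sodium readings. After normalization the log2 ratio shrank to 0.35 in NSLC, and it was 0.46 in HSLC. The HSLC value was 0.16 against the NSLC low sodium array.

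SERPINE2, also called protease nexin-1, is a cell surface and matrix inhibitor of thrombin, urokinase and tissue plasminogen activator. Its readings were 3653 in NSLC on high sodium and 1532 in NSLC on low sodium. In HSLC they were 2427 on high sodium and 1550 on low sodium. The low sodium readings of the phenotypes lay close together, and both high sodium readings lay above them. The log2 ratio was 0.74 in NSLC and 0.57 in HSLC.

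SERPING1, the C1 inhibitor, controls the first proteases of the classical and lectin complement pathways and also plasma kallikrein. Its bright probe, ILMN_1670305, read 1882 in NSLC on high sodium and 777 in NSLC on low sodium. It read 1574 in HSLC on high sodium and 935 in HSLC on low sodium. Both high sodium readings of this probe were above both low sodium readings. The log2 ratios were 0.70 in NSLC and 0.65 in HSLC, and 0.83 in HSLC against the NSLC low sodium array. As for SERPINA3, SERPINA5 and SERPINE2, the share of all genes separated this way was not counted, so nothing is read from it. Deposited readings also carry array brightness, with a 99th percentile of 3298 in NSLC on high sodium and 2320 in NSLC on low sodium. The other probe, ILMN_1711272, stayed between 78.6 and 93.5, near the array medians, and its ratios were 0.13 and 0.04. Averaging both probes lowered the ratio to 0.42 in NSLC and 0.34 in HSLC.

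By a size rule of 1.5-fold, 3 of the 7 serpins were higher on high sodium in NSLC, namely SERPINA3, SERPINE2 and SERPING1. In HSLC 2 of 7 were, SERPINA3 and SERPING1, with SERPINE2 just short at 1.49-fold. Over all genes 2.30% passed this rule in NSLC and 2.28% in HSLC, and here too the contrast is the one used to choose the genes. Without normalization SERPINE2 and SERPING1 were past 2-fold in NSLC, at 1.26 and 1.28, and with median scaling at 1.20 and 1.23. In those settings the median of all genes in NSLC was itself at 0.28 and 0.23. Relative to it, all 7 serpins were still above 0 in NSLC.

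The remaining members do not inhibit proteases. SERPINF1, pigment epithelium-derived factor, is a secreted antiangiogenic protein. It was dim, at 147 in NSLC on high sodium and 112 in NSLC on low sodium, and at 87.4 in HSLC on high sodium and 96.6 in HSLC on low sodium. Of these, the NSLC readings were above the 75th percentile of their arrays and the HSLC readings were not. The log2 ratio was 0.28 in NSLC and -0.07 in HSLC. In the second deposited table, called the series matrix here, it was 0.0075 in NSLC without renormalization, from readings of 131 on high sodium and 130 on low sodium. The median of all genes was then itself at -0.09. After renormalization the series matrix gave SERPINF1 a ratio of 0.30 in NSLC.

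SERPINH1, also called HSP47, is a collagen-binding chaperone of the endoplasmic reticulum. It read 945 in NSLC on high sodium and 604 in NSLC on low sodium. In HSLC it read 843 on high sodium and 610 on low sodium. Deposited readings were higher on high sodium in both phenotypes, but quantile normalization left a log2 ratio of 0.09 in NSLC, against 0.65 without normalization. In HSLC the ratio was 0.32, and 0.49 at most over the scalings. The NSLC value was as low as 0.01 with the series matrix. Against the NSLC low sodium array, the HSLC ratios were 0.25 for SERPINH1, -0.21 for SERPINF1, 0.53 for SERPINE2 and 0.12 for SERPINA1.

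**Figure D2:**
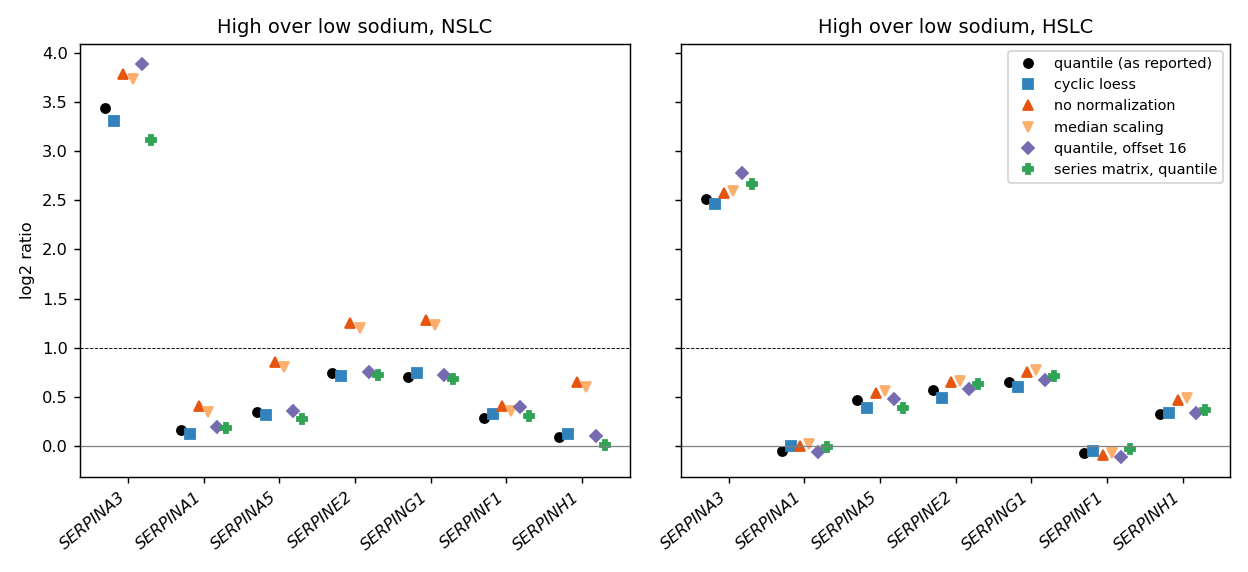
Log2 ratio of high over low sodium for each of the 7 serpins in NSLC (left) and HSLC (right) under 6 ways of scaling, background correction or value table, with the dashed line at 2-fold. SERPINA3 lies between 3.12 and 3.89 in NSLC and between 2.47 and 2.78 in HSLC under these settings, while SERPINE2 and SERPING1 pass 2-fold in NSLC only without normalization and with median scaling.

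As a list, the 7 serpins had a median log2 ratio of 0.35 in NSLC, where 7 of 7 were above 0, and 0.46 in HSLC, where 5 of 7 were. The medians of all genes were 0.04 and 0.01, with 56.4% and 52.6% of genes above 0. With the NSLC low sodium array in place of the HSLC one, the HSLC list median was 0.25. All 7 were detected on all 4 arrays, so no member was lost to the filter. Detection above the 75th percentile removed SERPINF1 from every comparison that used an HSLC array.

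Between the phenotypes the serpins lay closer together. On low sodium SERPINA3 was higher in HSLC than in NSLC, at 160 against 119, with a log2 ratio of 0.54 (0.37 to 0.71 over the scalings). SERPINA5 was at -0.30 (-0.34 to -0.25), from 1373 in HSLC and 1651 in NSLC. The other 5 lay between -0.14 and 0.18. None of the 7 reached 2-fold, against 0.332% of all genes in either direction. The list median was -0.04 beside a median of 0.0029 for all genes. These ratios rest on the HSLC low sodium array, and no value without it can be had.

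On high sodium SERPINA3 was lower in HSLC than in NSLC in the sample files, at 958 against 1600. The log2 ratio of -0.39 was -0.73 without normalization but 0.052 with the series matrix, in which SERPINA3 read 1038 in HSLC and 1178 in NSLC. Its direction therefore cannot be given. SERPINF1 had the lowest ratio of the 7, at -0.50 (-0.71 to -0.43), from 87.4 in HSLC and 147 in NSLC. SERPINE2 was at -0.21 (-0.59 to -0.09 over the scalings) and SERPINA5 at -0.19 (-0.58 to -0.19). SERPINA1 was at -0.04 (-0.24 to -0.03), SERPING1 at 0.13 (-0.25 to 0.19) and SERPINH1 at 0.16 (-0.15 to 0.24). None of the 7 reached 2-fold, against 0.447% of all genes in either direction, and the list median was -0.19 beside 0.02 for all genes.

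The diet ratio of SERPINA3 was smaller in HSLC than in NSLC by 0.92 on the log2 scale, which cannot be tested with 1 array per group. This difference was -1.22 without normalization, -0.45 with the series matrix and -0.37 with the series matrix as deposited. With the NSLC low sodium array in place of the HSLC one it was -0.39, which is the HSLC over NSLC ratio on high sodium given above. The spread between 2 probes of 1 gene, taken over 515 genes, had a standard deviation of 0.21 in NSLC and 0.17 in HSLC. Their root sum of squares, 0.27, was taken for such a difference. It assumes that the errors of both ratios are independent, which was not checked. That figure covers probe error only and holds no spread between animals. The other 6 serpins differed between phenotypes by -0.36 (SERPINF1) to 0.23 (SERPINH1).

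**Figure D3:**
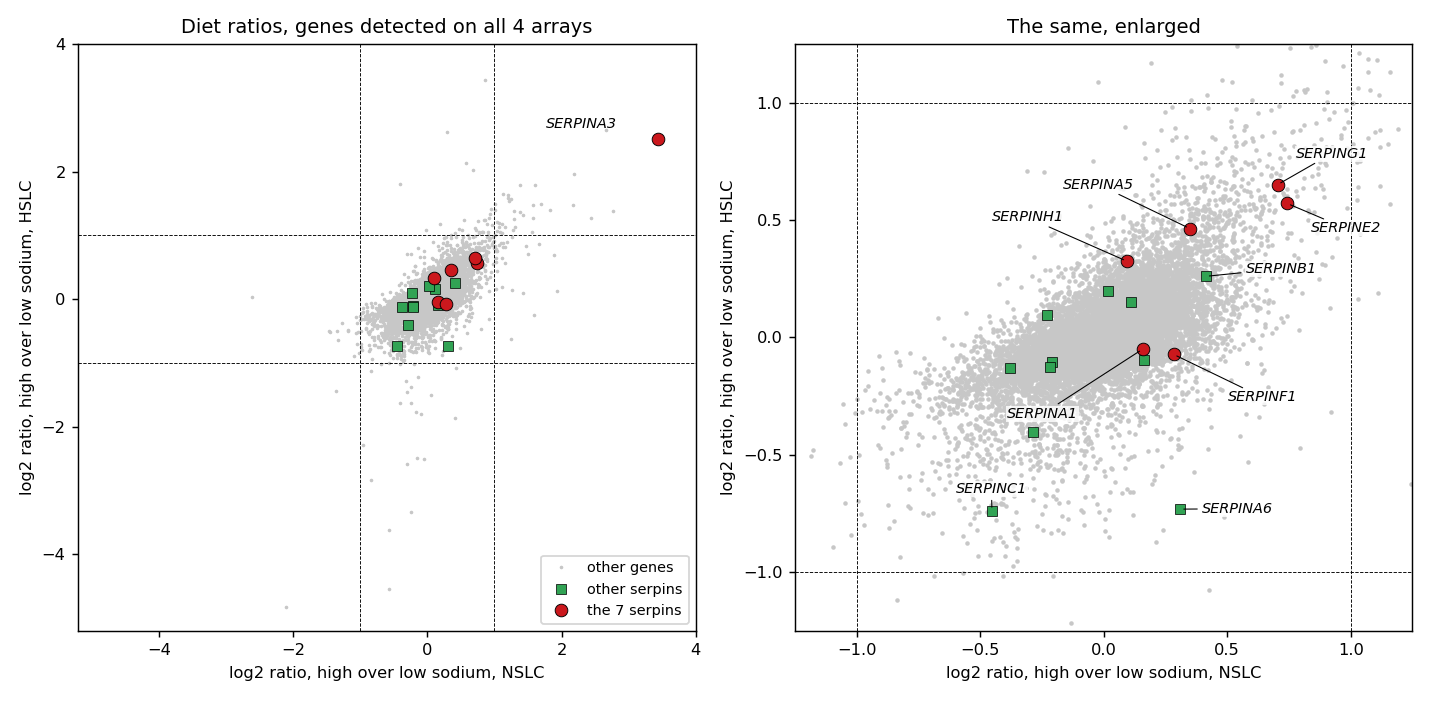
Log2 ratios of high over low sodium in NSLC (horizontal) and HSLC (vertical) for genes detected on all 4 arrays, in full (left) and enlarged around 0 (right); red circles are the 7 serpins, green squares the other detected serpins and dashed lines mark 2-fold. SERPINA3 stands apart at 3.44 and 2.51, and SERPINA6 lies on opposite sides of 0 at 0.31 and -0.73.

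The other serpins on the array gave the family context. Of 24 further serpin genes, 11 were detected in all 4 samples and 8 in none, and 7 were above the 75th percentile on every array. Of the 11, 5 were above 0 in NSLC with a median of -0.21, and 4 in HSLC with a median of -0.11. None reached 2-fold in a diet comparison. Over all genes 56.4% were above 0 in NSLC and 52.6% in HSLC, and 0.509% and 0.529% were higher by 2-fold. Nothing is therefore read from the lack of 2-fold ratios among these 11. SERPINC1, antithrombin, read 635 in NSLC on high sodium and 600 in NSLC on low sodium. In HSLC it was 415 on high sodium and 635 on low sodium. Its log2 ratio was -0.74 in HSLC and -0.45 in NSLC, where it turned with scaling (-0.48 to 0.08).

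SERPINA6, the corticosteroid-binding globulin and another non-inhibitory serpin, read 1307 in NSLC on high sodium and 709 in NSLC on low sodium. In HSLC it read 636 on high sodium and 953 on low sodium. The phenotypes thus went opposite ways, with log2 ratios of 0.31 in NSLC and -0.73 in HSLC, and the signs held over the scalings (0.31 to 0.89 and -0.76 to -0.56). With the low sodium arrays exchanged, the HSLC high sodium sample was at -0.39 against NSLC on low sodium, and the NSLC high sodium sample at -0.04 against HSLC on low sodium. The sizes and the NSLC sign therefore depended on which low sodium array was used. SERPINF2, the plasmin inhibitor alpha-2-antiplasmin, was at -0.28 in NSLC (-0.34 to 0.03) and -0.40 in HSLC. SERPINB1, an intracellular inhibitor of neutrophil proteases, was at 0.41 in NSLC and 0.26 in HSLC. The rest were small in both phenotypes: SERPINA12 (vaspin) at -0.38 and -0.13, SERPINA11 at -0.21 and -0.10, SERPIND1 (heparin cofactor II) at -0.22 and -0.13, SERPINB8 at 0.11 and 0.15, and SERPINI1 (neuroserpin) at 0.02 and 0.20. SERPINA10, which inhibits factor Xa with protein Z, was at 0.16 and -0.10, and SERPINB7 (megsin) at -0.23 and 0.09.

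The proteases that these serpins act on were set beside them from a list of 17 genes, 12 of them detected in all 4 samples. In NSLC 8 of the 12 were above 0, 2 at 2-fold or more and 1 lower by 2-fold, with a median of 0.07. In HSLC 8 were above 0, with 1 past 2-fold in each direction and a median of 0.03. Over all genes 56.4% were above 0 in NSLC and 52.6% in HSLC, and 0.509% and 0.529% were higher by 2-fold. Lower by 2-fold were 19 of 12191 genes in NSLC and 29 of 12481 in HSLC. C1R and C1S, the proteases blocked by SERPING1, were at 1.11 and 1.10 in NSLC and at 1.03 and 0.87 in HSLC. PLAU, urokinase, the target of SERPINA5 and SERPINE2, was at 0.89 in NSLC and 0.97 in HSLC. KLK1, tissue kallikrein, was the lowest of the list at -1.36 and -1.44, although at -0.82 without normalization in NSLC. F2, prothrombin, read 243 in NSLC on high sodium and 182 in NSLC on low sodium, with log2 ratios of 0.12 in NSLC and 0.43 in HSLC. ELANE, neutrophil elastase and the target of SERPINA1, was at -0.30 in NSLC and -0.15 in HSLC, and PLAT, tissue plasminogen activator, at -0.35 and -0.04. Cathepsin G (CTSG), the target of SERPINA3, was not detected in any sample, reading 67.9 in NSLC on high sodium, 68.6 in NSLC on low sodium, 64.3 in HSLC on high sodium and 59.3 in HSLC on low sodium. Chymase (CMA1) was just above the medians at 71.7 to 85.3, with ratios of 0.02 in both phenotypes.

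Receptors of these serpins were measured by 4 genes, 3 of them detected in all samples. LRP1, which takes up complexes of serpin and protease, was at 0.57 in NSLC and 0.46 in HSLC. LRP2, megalin of the proximal tubule, was at 0.32 and -0.38. PNPLA2, a lipase that binds SERPINF1, was at -0.13 in NSLC, where its sign turned with scaling, and at -0.42 in HSLC.

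Of the clients and partners of SERPINH1, 18 of 22 measured genes were detected in all samples. In NSLC 16 of 18 were above 0 with a median of 0.47 and 2 at 2-fold or more, COL1A1 (1.57) and COL1A2 (1.29). In HSLC 16 of 18 were above 0 with a median of 0.43 and 5 at 2-fold or more, led by COL1A1 (1.48), COL6A3 (1.41), COL1A2 (1.38) and COL4A1 (1.18). Over all genes, 56.4% were above 0 and 0.509% higher by 2-fold in NSLC, and 52.6% and 0.529% in HSLC. Those chains had larger ratios than SERPINH1 itself, at 0.09 and 0.32. COL3A1 was at 0.05 and 0.06, but its probe read between 74.8 and 85.8, near the array medians, so no change could be read from it. PPIB, which works with it on procollagen folding, was at 0.04 in NSLC and 0.31 in HSLC. PLOD2, a collagen lysyl hydroxylase, was at 0.48 and 0.41.

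SERPINA3 and SERPINA1 were set beside a list of other acute phase genes. Of 22 measured genes, 12 were detected in all samples. Their median was 0.05 in NSLC with 9 above 0, and 0.04 in HSLC with 7 above 0. Over all genes 56.4% were above 0 in NSLC and 52.6% in HSLC. CFB, complement factor B, was at 2.18 and 1.97, C3 at 0.68 and 2.02, and CP, ceruloplasmin, at 0.93 and 0.81. SAA4 was lower at -0.77 and -0.27. Of the classical liver acute phase genes, CRP, SAA2, ORM2, LBP, FGB and ITIH4 were detected in no sample. Regulators of this response formed a list of 10, of which 8 were detected throughout. Their median was 0.46 in NSLC and 0.28 in HSLC, beside 0.04 and 0.01 over all genes. STAT3 was at 0.08 and 0.10 and IL6R at -0.10 and 0.01. SOCS3 was detected on 3 arrays and is not in that median. The oncostatin M receptor OSMR led the list at 0.83 and 0.54. IL6ST, the shared receptor chain of this cytokine family, was at 0.48 and 0.21, the transcription factor CEBPD at 0.48 and 0.34 and the kinase JAK1 at 0.48 and 0.43.

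**Figure D4:**
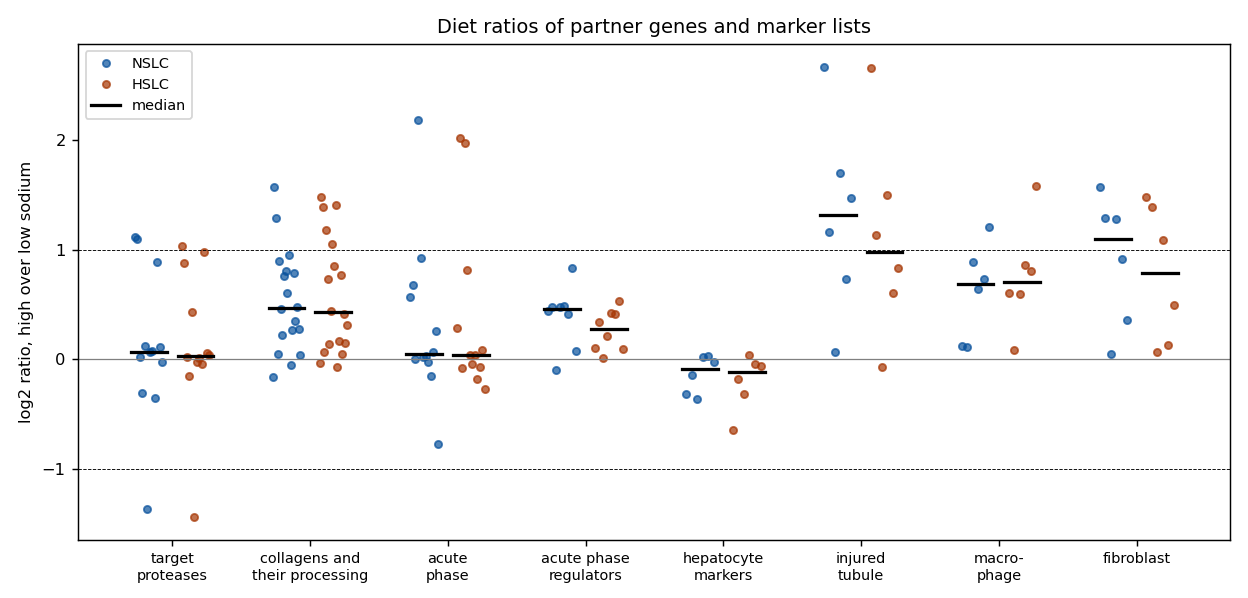
Log2 ratios of high over low sodium in NSLC (blue) and HSLC (brown) for detected members of 8 gene lists, 1 point per gene, with bars at the list medians and dashed lines at 2-fold. Injured tubule and fibroblast markers stand highest, with medians of 1.31 and 1.10 in NSLC and 0.98 and 0.79 in HSLC, while hepatocyte markers are at -0.09 and -0.12.

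Markers of cell types that a biopsy can hold were summed beside the serpins. The 10 hepatocyte markers summed to 1477 in NSLC on high sodium and 1378 in NSLC on low sodium, and to 1280 in HSLC on high sodium and 1586 in HSLC on low sodium. APOA2, FGB, AHSG and TF of that list were detected in no sample, and the 6 detected markers had median ratios of -0.09 and -0.12. Fibroblast markers summed to 13094 in NSLC on high sodium and 4253 in NSLC on low sodium, and to 11775 in HSLC on high sodium and 5488 in HSLC on low sodium. All 6 detected ones, of 8, were above 0 in both phenotypes, beside 56.4% of all genes in NSLC and 52.6% in HSLC. COL3A1 among them was near background, LUM and THY1 were detected nowhere, and DCN made up 8793 of the NSLC high sodium sum. Macrophage markers summed to 3646 in NSLC on high sodium and 1721 in NSLC on low sodium, and to 3686 in HSLC on high sodium and 1878 in HSLC on low sodium, with 6 of 6 detected ones, of 8, above 0 and MRC1 detected nowhere.

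Smooth muscle markers summed to 15854 in NSLC on high sodium and 5330 in NSLC on low sodium, and to 9191 in HSLC on high sodium and 5135 in HSLC on low sodium. Injured tubule markers summed to 3859 in NSLC on high sodium and 1227 in NSLC on low sodium, and to 3485 in HSLC on high sodium and 1439 in HSLC on low sodium. Of these, 6 were detected in all samples, 6 of them above 0 in NSLC and 5 in HSLC. Over all genes 56.4% were above 0 in NSLC and 52.6% in HSLC. LCN2 among the detected markers stayed near 0, at 0.07 in NSLC and -0.07 in HSLC. CLU and VCAM1 were not detected on every array, and KRT19 made up 1525 of the NSLC high sodium sum. Neutrophil markers summed to 871 in NSLC on high sodium and 840 in NSLC on low sodium, and to 1685 in HSLC on high sodium and 791 in HSLC on low sodium. CSF3R, CXCR2 and CTSG were detected nowhere, and CAMP made up 967 of the HSLC high sodium sum. Proximal tubule markers summed to 8048 in NSLC on high sodium and 6343 in NSLC on low sodium, and to 3914 in HSLC on high sodium and 5854 in HSLC on low sodium. All these sums are of deposited intensity, before normalization. After normalization 1 of the 8 proximal tubule markers was above 0 in NSLC, with a median log2 ratio of -0.23. In HSLC 0 of 8 were, with a median of -0.76. These counts stand beside 56.4% of all genes above 0 in NSLC and 52.6% in HSLC. The part of these cell type differences in the serpin ratios was not tested.

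The genes whose profile over the 4 arrays was most like that of SERPINA3 were found by the root mean square difference of centred log2 values among 11908 other genes detected throughout. They were HAVCR1, a marker of tubular injury, at 0.33, then DIO2, a deiodinase, at 0.48, CFB at 0.49, FBLN1, a matrix glycoprotein, at 0.59, and ACTG2, a smooth muscle actin, at 0.60. HAVCR1 read 739 in NSLC on high sodium and 96.0 in NSLC on low sodium. Its HSLC readings were 799 on high sodium and 121 on low sodium. Its low sodium readings, like those of SERPINA3, were near background in both phenotypes and higher in HSLC than in NSLC. DIO2 and ACTG2 were, like SERPINA3, lower in HSLC than in NSLC on high sodium in the sample files, at -0.88 and -0.95. The profiles were centred but not scaled, so this measure favours genes with large diet ratios like that of SERPINA3. Since SERPINA3 was itself chosen on the diet contrast, nothing is read from the list. The measure rests on 4 arrays, and no test was run on it.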

How the data were processed

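Per the labels' protocols, total RNA was extracted with Trizol, cleaned on RNeasy columns, labelled with Illumina TotalPrep and detected with Cy3. The deposited files hold linear intensity for 48702 probes in each of 4 samples, made with BeadStudio per the submitters' processing notes; its version and any background correction, normalization or pooling were not found in the labels. The second deposited table of intensity, called the series matrix here, has a mean of 215 for both NSLC arrays and 192 for both HSLC arrays, so phenotypes are compared in it only after renormalization.

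From the sample files 1 probe listed at 0 was left out, normexp background correction with an offset of 50 and quantile normalization were applied (limma 3.58.1, R 4.3.3), and log2 was taken. With this offset the results were nearly those of no background correction. Gene symbols came from the platform annotation given: 23688 probes had 1 symbol, 35 several and 24979 none. A gene was represented by its brightest probe, and 11909 genes passed detection on every array. The pipeline was tested on simulated data. The members, gene lists and comparisons were chosen with earlier results of these data known. Named were all detected serpins, up to 4 genes of each list by absolute diet ratio with stated partners of the members, and the 5 genes nearest to SERPINA3. The number of arrays limits the precision, and no test was run. Alternatives were other scalings, offset, value table, detection limit, probe rule and fold. No probe, promoter or protein sequence was used here. The probes match human transcripts, so mismatches to baboon RNA may weaken some of them.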

Additional observations from a re-analysis of the deposited data

Results flagged for a closer look

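Several genes had diet ratios (high over low sodium) of opposite sign in the 2 phenotypes. With 1 array per group none of these differences was tested. Each value is the HSLC ratio minus the NSLC ratio on the log2 scale. SERPINA6 differed by -1.04, from -0.73 in HSLC and 0.31 in NSLC. The sizes and the NSLC sign depended on the low sodium array used. With these arrays exchanged SERPINA6 was at -0.39 in HSLC and -0.04 in NSLC, both below 0. SERPINF1 differed by -0.36, from -0.07 in HSLC and 0.28 in NSLC. SERPINA1 differed by -0.21, from -0.05 in HSLC and 0.16 in NSLC, and the sign of its HSLC ratio turned with scaling. SERPINA10 differed by -0.26, from -0.10 in HSLC and 0.16 in NSLC, and SERPINB7 by 0.32, from 0.09 in HSLC and -0.23 in NSLC. The SERPINA1 and SERPINA10 differences were smaller than the 0.27 taken above for probe error. With the low sodium arrays exchanged, the signs of these genes turned in both phenotypes. SERPINA1 was then at 0.12 in HSLC and -0.01 in NSLC, and SERPINA10 at 0.21 and -0.14. Among list genes, LRP2 differed by -0.70 (-0.38 in HSLC and 0.32 in NSLC), and the endothelial receptor TEK by -0.42, with an HSLC ratio of -0.01 that ran from -0.04 to 0.04 over the scalings. MPO, a neutrophil granule enzyme, differed by 1.11, from 1.09 in HSLC and -0.02 in NSLC, where it ran from -0.07 to 0.03 over the scalings, and LTF (lactoferrin) by 0.64. DES (desmin), which skeletal muscle also makes, differed by -1.08 and read 280 in HSLC on low sodium, the array that stands apart.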

How the results depend on the processing

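No paired analysis was possible because each group has 1 array and so the groups share 1 replicate number. A fit of diet with phenotype as a block was not run, since the members were chosen on the diet contrast. Leaving out an array empties its group, so the HSLC low sodium array was replaced instead. A value counts as moved when it crossed 2-fold or shifted by more than the spread between probes of 1 gene (0.15 to 0.27). Of the recomputed values, 27 moved and 104 did not for SERPINA3, list medians and counts, and 26 moved and 205 did not for the other 6 serpins. No value past 2-fold changed sign. Without normalization the NSLC diet comparison gave 3 serpins at 2-fold in place of 1, a list median of 0.86 and SERPINA3 at 3.79, and median scaling gave 3, 0.81 and 3.74. On high sodium, HSLC over NSLC, the list median was -0.58 without normalization and -0.50 with median scaling, and SERPINA3 was at -0.73 and -0.65 (0.052 with the series matrix). Its difference of diet ratios was -1.22 without normalization, -1.15 with median scaling and -0.45 from series matrix values. With an offset of 16 SERPINA3 was at 3.89 in NSLC, 2.78 in HSLC, 0.71 between phenotypes on low sodium and -1.11 for the difference. Cyclic loess gave 0.37 on low sodium. The series matrix gave 3.12 in NSLC, and as deposited (added after seeing the data) 3.07 in NSLC, 2.70 in HSLC and -0.37 for the difference. The NSLC low sodium array in place of the HSLC one (also added) gave 3.05 for SERPINA3, a list median of 0.25 in HSLC and a difference of -0.39. At 1.5-fold the counts were 3 in NSLC and 2 in HSLC. The number of genes higher by 2-fold in NSLC was 62, but 243 without normalization, 199 with median scaling, 117 with an offset of 16 and 41 with the series matrix; genes lower numbered 19, 2, 3, 47 and 18. In HSLC 66 were higher and 29 lower, with 119 and 38 at an offset of 16, 106 and 53 against the NSLC low sodium array, and 46 lower without a detection filter. Genes lower by 2-fold in HSLC than in NSLC on high sodium numbered 44, but 158 without normalization, 118 with median scaling and 79 with an offset of 16. On low sodium 35 were higher and 6 lower, with 3 lower without normalization, 3 under median scaling and 4 from series matrix values. The causes were not tested. SERPINF1, at 1.28 to 1.85 times the array median, and SERPINA3 in NSLC on low sodium, at 1.53 times, had the least signal over background among the leading probes.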
